A study of Mus musculus with 2 samples.

Results

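The mir-199, Mir214 and Mir140 genes are miRNA genes of connective tissue and cartilage, and their counts were examined in the calf muscle of the newborn mouse. They were taken by name: Mir199a-1, Mir199a-2, Mir199b and Mir214, which lie in or opposite the dynamin genes, and Mir140, which lies in Wwp2. These are 5 of the 2202 miRNA genes in the deposited count tables. Small RNA had been sequenced from gastrocnemius of B6CASTF1/J females at postnatal day 4, a hybrid strain of C57BL/6J and CAST/EiJ parents. There were 2 libraries in 1 group, numbered in the labels as separate biological replicates, and no second condition. A level here is a gene's own-strand read count scaled to 1000000 own-strand reads over all genes (CPM). Averages are mean ± SD over both libraries (n = 2). The libraries held 5569392 and 4336759 own-strand gene reads, so a gene with 0 reads may lie at up to 0.539 CPM in library 1, or 0.692 CPM in library 2. The muscle label fitted its defining marker, since the skeletal muscle gene Mir206 was the most counted gene in both libraries, reaching 129336 CPM in library 1, with 119323 CPM in library 2. The other muscle markers used below were far lower, with means from 82.9 CPM for Mir133b to 1169 CPM for Mir499.

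MicroRNAs are cut from a hairpin whose 2 arms (5p and 3p) each can give a mature strand, and the seed, bases 2 to 8 of that strand, pairs with target messengers. Mir199a-2 and Mir214 are processed from the long noncoding RNA Dnm3os, a transcript of mesenchyme, fibroblasts and the perichondrium, whose loss in mice stunts skeletal growth. In mouse muscle cells miR-214 represses the Polycomb enzyme Ezh2 and favours differentiation. Mir140 is co-expressed with Wwp2 in cartilage under the chondrocyte factor Sox9, and mice without it are mildly dwarfed and prone to cartilage loss.

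The 5 genes lie on 4 chromosomes. In mm10 with GENCODE M21, Mir199a-2 lies at chr1:162217814-162217923 and Mir214 at chr1:162223368-162223477, both on the plus strand inside an exon of Dnm3os and opposite an intron of Dnm3. Their starts are 5554 bases apart. Mir199b lies at chr2:32318460-32318569 on the plus strand, opposite an intron of Dnm1. Mir199a-1 lies at chr9:21496495-21496564 on the minus strand, opposite an intron of Dnm2. Mir140 lies at chr8:107551244-107551313 on the plus strand, in an intron of 3 protein-coding Wwp2 transcripts and inside an exon of 1 retained-intron transcript. No counted gene overlaps any of the 5 on either strand.

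The mature strands listed in RefSeq (GRCm38.p6) show which genes can produce the same read. For Mir140 and Mir199b, the 3p strand was used. Capitals mark the seed.
miR-214-3p (Mir214): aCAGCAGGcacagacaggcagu
miR-214-5p (Mir214): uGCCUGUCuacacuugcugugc
miR-140-3p (Mir140): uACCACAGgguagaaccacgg
miR-199a-3p (Mir199a-1, Mir199a-2) and miR-199b-3p (Mir199b): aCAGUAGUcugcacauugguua
miR-199a-5p (Mir199a-1, Mir199a-2): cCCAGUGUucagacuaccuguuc
The 3p strand is the same in all 3 mir-199 genes, and the 5p strand is the same in Mir199a-1 and Mir199a-2. The matching stretch of the Mir199b hairpin differs from miR-199a-5p at 1 base, C10U, counted from the 5′ end of the mature strand. No strand of Mir214 or Mir140 occurs in another counted hairpin.

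The hairpins show how much of each gene a read could identify. Capitals mark bases inside a run of 20 or more that also occurs in another counted hairpin.
Mir214: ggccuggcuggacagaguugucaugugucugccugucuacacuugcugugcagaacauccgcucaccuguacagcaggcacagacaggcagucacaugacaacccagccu
Mir140: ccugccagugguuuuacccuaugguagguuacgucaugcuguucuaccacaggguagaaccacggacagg
Mir199b: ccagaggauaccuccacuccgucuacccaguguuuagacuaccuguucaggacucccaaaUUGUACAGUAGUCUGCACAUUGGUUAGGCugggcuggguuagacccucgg
Mir199a-2: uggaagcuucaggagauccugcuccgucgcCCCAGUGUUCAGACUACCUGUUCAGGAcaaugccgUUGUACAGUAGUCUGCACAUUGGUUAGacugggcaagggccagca
Mir199a-1: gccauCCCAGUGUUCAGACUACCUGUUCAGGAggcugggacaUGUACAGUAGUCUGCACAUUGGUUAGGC
Shared runs covered 55 of 70 bases in Mir199a-1, 54 of 110 in Mir199a-2 and 29 of 110 in Mir199b, and 0 in Mir214 and Mir140. All of these runs were shared with another mir-199 gene. A read of miR-199a-5p needed 1 extra base at its 5′ end to tell Mir199a-1 from Mir199a-2, or 5 extra bases at its 3′ end. A read of the 199-3p strand needed 2 extra bases at its 3′ end to belong to Mir199a-2 alone. Within the annotated hairpin, no 3′ extension of that strand was particular to Mir199a-1. The rest of the genome was not searched.

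**Figure D1:**
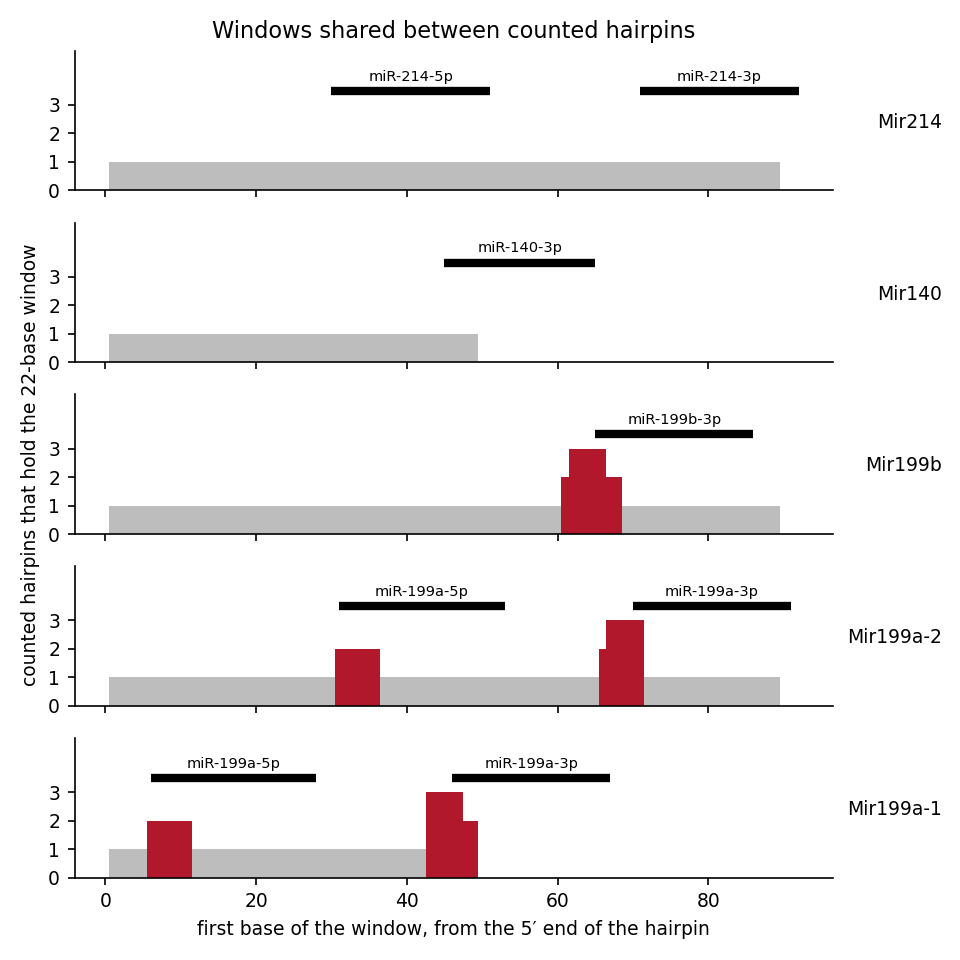
Number of counted hairpins (vertical axis) that hold each 22-base window, by the window's first base from the 5′ end of the hairpin (horizontal axis). Red bars are windows held by more than 1 hairpin and black lines are the mature strands listed in RefSeq. Windows over the listed mir-199 strands are held by 2 or 3 hairpins, whereas all 89 windows of Mir214 and all 49 of Mir140 are held by 1.

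By reads that could be placed, Mir214 and Mir140 were abundant, Mir199b and Mir199a-2 were low, and Mir199a-1 was at the floor. Reads that matched several places enter no count. The mir-199 genes share mature strands, so their counts do not give the level of those strands. Together the 5 genes held 0.542% of gene reads in library 1 and 0.424% in library 2, a mean of 0.483% ± 0.0831 (SD, n = 2). Mir214 made up 65.8% of these reads in library 1 and 63.4% in library 2. Mir140 made up 31.8% and 33.7%, and the 3 mir-199 genes together 2.47% and 2.87%. Of the 5 genes, 4 were detected, meaning 2 CPM or more in both libraries, as were 335 of all 2202 genes.

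Mir214 had 19841 reads (3563 CPM) in library 1 and 11673 reads (2692 CPM) in library 2. It averaged 3127 ± 616 CPM and ranked 49th and 58th of all counted genes. Mir140 had 9590 reads (1722 CPM) in library 1 and 6199 reads (1429 CPM) in library 2, an average of 1576 ± 207 CPM, at ranks 70 and 72. With multimapping reads added to the total, the averages were 1829.7 CPM for Mir214 and 921 CPM for Mir140. Both genes lay far above the median detected gene, which was at 123 CPM, and library 1 was the higher library for both. Opposite-strand reads came to 1 for Mir214 in library 1 and 0 for the other values of these genes.

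Mir199b had 427 reads (76.7 CPM) in library 1 and 288 reads (66.4 CPM) in library 2, an average of 71.5 ± 7.25 CPM. Mir199a-2 had 317 reads (56.9 CPM) in library 1 and 239 reads (55.1 CPM) in library 2, an average of 56.0 ± 1.28 CPM. With multimapping reads added to the total, the averages were 41.8 CPM for Mir199b and 32.7 CPM for Mir199a-2. These genes ranked 193rd and 201st by mean level, below the median detected gene. Mir199a-1, which gives the same mature strands as Mir199a-2, had 0 reads in library 1 and 1 read in library 2. Both values of Mir199a-1 are within the limit that a count of 0 allows, so no ratio was formed with it.

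The order of levels was Mir214, Mir140, Mir199b, Mir199a-2 and Mir199a-1 in both libraries, and no pair of neighbours overlapped in its range over the libraries. Library by library, the 95% Poisson intervals of Mir199b (59.0 to 74.5 CPM) and Mir199a-2 (48.3 to 62.6 CPM) overlapped in library 2, and those of Mir199b (69.6 to 84.3 CPM) and Mir199a-2 (50.8 to 63.5 CPM) did not in library 1. All intervals here cover counting error alone, because PCR copies without molecular identifiers are not separate molecules. A small RNA read stands for 1 mature strand, so the levels were compared as CPM, and dividing by hairpin length left the order as it was. Differences in ligation between mature strands also enter such an order and were not tested. The mir-199 genes share mature strands with one another, and the part of this in their order was not tested.

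**Figure D2:**
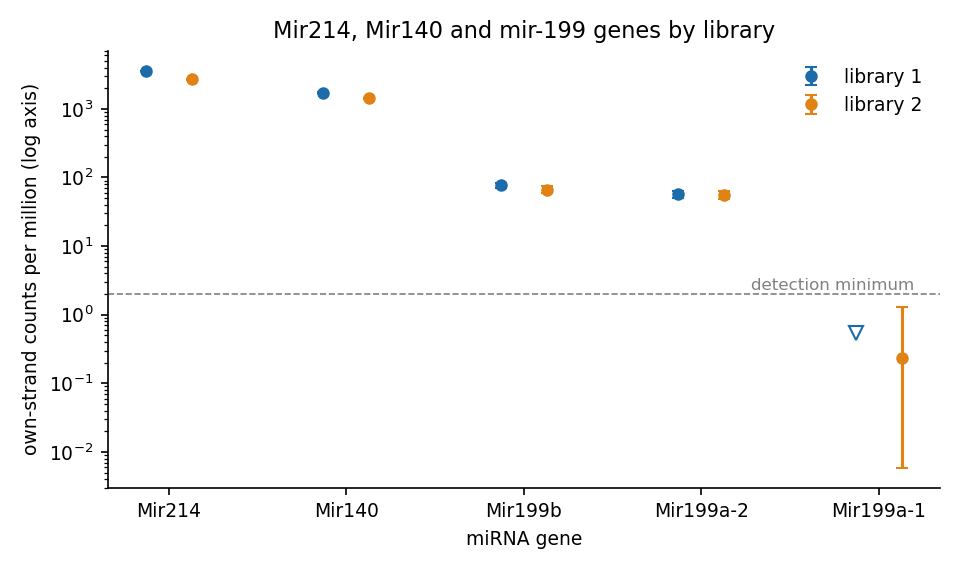
Own-strand CPM (vertical, log axis) of the 5 genes in library 1 (blue) and library 2 (orange), with 95% Poisson intervals that cover counting error only. The open triangle is the limit of 0.539 CPM that 0 reads of Mir199a-1 allow in library 1, and the dashed line is the detection minimum of 2 CPM. Mir214 and Mir140 sit above 1000 CPM in both libraries and Mir199a-1 sits below the minimum.

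Mir214 and Mir199a-2 both lie in exons of the same host RNA, Dnm3os, and their counts were far apart. The ratio of Mir214 to Mir199a-2 reads was 62.6 (95% exact interval 56.0 to 70.2) in library 1 and 48.8 (43.0 to 55.7) in library 2. The ratio of Mir214 to Mir140, genes of different chromosomes that share no strand with another gene, was 2.07 (2.02 to 2.12) in library 1 and 1.88 (1.83 to 1.94) in library 2. Within each library these ratios need no scaling. Reads that matched several places were kept in a line of their own and in no gene, and that line held 36.9% of all reads in library 1 and 37.6% in library 2. For scale, the reads by which Mir214 exceeded the 3 mir-199 genes together equal 0.497% of that line in library 1 and 0.350% in library 2. How many of its reads came from mir-199 strands cannot be read from the tables, so the mir-199 levels count only reads that could be placed and their part in the gap was not tested.

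**Figure D3:**
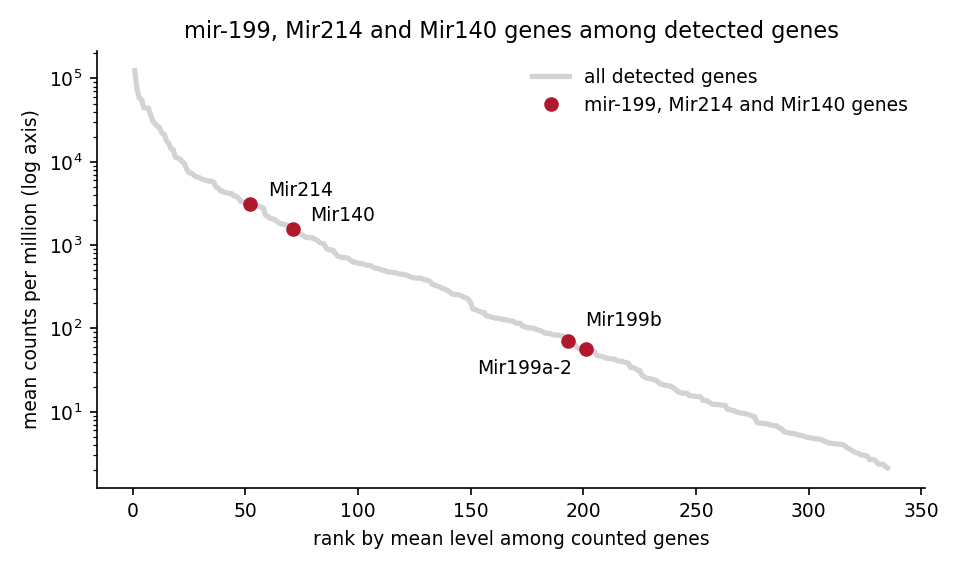
Mean CPM (vertical, log axis) against the rank by mean level (horizontal) for the 335 detected genes (grey line). Red points are Mir214 at rank 52, Mir140 at rank 71, Mir199b at rank 193 and Mir199a-2 at rank 201.

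The libraries differed in the abundant genes of the set. Mir214 was higher in library 1 than in library 2 by 0.43 on the log2 scale (95% counting interval from 0.39 to 0.46), and Mir140 was higher there by 0.29 (0.24 to 0.34). Both were called by the exact two-sided binomial test of counts given TMM-scaled totals, with Benjamini-Hochberg adjustment over the 335 detected genes (adjusted p = 1.28e-143 for Mir214 and 9.40e-35 for Mir140). This test compares these libraries, not conditions. It called 55.5% of all detected genes, and 26.9% of all detected genes were called higher in library 1, so 2 called of 4 detected is a share near the background. Among detected genes, 23.0% had a larger absolute ratio than Mir214 and 37.6% a larger one than Mir140.

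Mir199b and Mir199a-2 were not called. The log2 ratio of Mir199b was 0.23 (0.01 to 0.45; adjusted p = 0.0665 by the exact binomial test), and it was called with DESeq2 size factors, with strand ignored and with no count filter. The ratio of Mir199a-2 was 0.07 (-0.18 to 0.32; adjusted p = 0.710 by the exact binomial test). With these read numbers a difference between libraries of the size seen for Mir214 lies above the interval of Mir199a-2 and inside that of Mir199b. The median log2 ratio was 0.26 over the 4 detected genes and -0.03 over all detected genes.

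**Figure D4:**
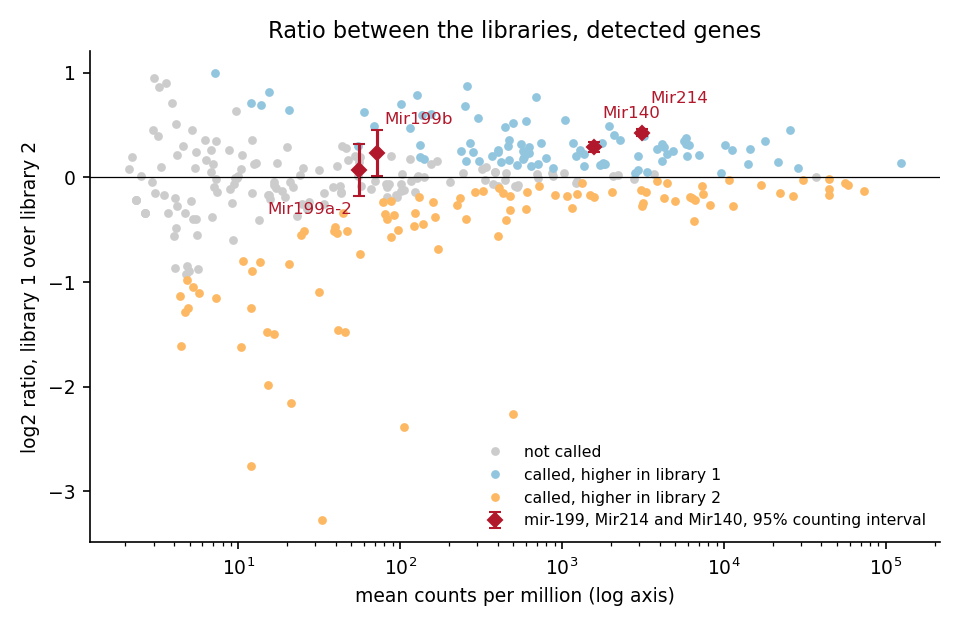
Log2 ratio of library 1 over library 2 (vertical) against mean CPM (horizontal, log axis) for the 335 detected genes. Points are grey where not called, blue where called higher in library 1 and orange where called higher in library 2. Red diamonds with 95% counting intervals are Mir214 and Mir140, which lie above 0, and Mir199b and Mir199a-2, which were not called.

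Markers of other cells also differed between the libraries. For comparison, the test called 26.9% of all detected genes higher in library 1 and 28.7% higher in library 2. Endothelial Mir126a had 29519 CPM in library 1 and 21931 CPM in library 2, a log2 ratio of 0.45. The 4 leukocyte markers, all detected, had a summed level of 657 CPM in library 1 and 408 CPM in library 2, and 3 were called higher in library 1. The 5 skeletal muscle markers had a summed level of 130974 CPM in library 1 and 120675 CPM in library 2, nearly all from Mir206. Of these markers, 3 were called higher in library 1 and 1 higher in library 2. In the other direction, the 7 epithelial markers had a summed level of 267 CPM in library 1 and 375 CPM in library 2, and the 5 detected were called higher in library 2. Liver Mir122 was at 169 CPM in library 1 and 824 CPM in library 2, and the erythroid markers, of which Mir451a was called, had a summed level of 96.8 CPM in library 1 and 119 CPM in library 2. The smooth muscle genes Mir143 and Mir145a had a summed level of 25509 CPM in library 1 and 29100 CPM in library 2 and were called in opposite directions. The 4 neural and glial genes that matched had a summed level of 348 CPM in library 1 and 335 CPM in library 2, nearly all from Mir338, which was at 346 CPM in library 1 and 328 CPM in library 2 and was not called. Mir219a-2 was at 2.15 CPM in library 1 and 6.69 CPM in library 2 and was called higher in library 2. Of the neuronal genes, Mir9-2 had 0 reads in both libraries. Mir124a-1 had 0 reads in library 1 and 1 in library 2, so both genes were at the floor. Reads that match several places enter no count, and each listed strand of Mir219a-2 also occurs in another counted hairpin. Strand sharing of Mir9-2 and Mir124a-1 was not examined, so their counts do not show that neuronal miRNAs were absent. The part of these cells in the ratios of Mir214 and Mir140 was not tested, and in whole muscle fewer cells of a type and less RNA per cell cannot be told apart.

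Other miRNAs known from cartilage and connective tissue were called in both directions. Of 14 such genes, 12 were detected, of which 5 were called higher in library 1, 3 higher in library 2 and 4 were not called. Of all detected genes, 26.9% were called higher in library 1 and 28.7% higher in library 2. The median log2 ratio of the 12 genes was -0.06, against -0.03 over all detected genes. Among the cartilage genes, Mir455, which lies in the collagen gene Col27a1, had 1297 CPM in library 1 and 1371 CPM in library 2. It was close in level to Mir140 but had a log2 ratio of -0.06 (-0.11 to -0.01). With TMM scaling it was called higher in library 2, near the threshold of 0.05 (adjusted p = 0.0439 by the exact binomial test). This call was not repeated under the other scalings and filters. The intervals of Mir140 and Mir455 did not overlap, and the difference between their ratios was not tested. Mir675, cut from the imprinted H19 transcript, had 40.4 CPM in library 1 and 45.4 CPM in library 2 and was not called. Mir1247 had 1 read in library 1 and 4 in library 2, below the detection minimum.

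The 3 highest of the remaining connective genes were Mir143, Mir23b and Mir21a. Mir143, a gene of smooth muscle and fibroblasts, averaged 26778 ± 2565 CPM, Mir23b 21631 ± 1348 CPM and Mir21a, a widely expressed gene that rises in fibrosis, 16868 ± 766 CPM. Each of these means lay above that of Mir214. Counted by placed reads, the collagen-repressing mir-29 genes lay far below Mir214. They ranged from 1.83 ± 0.962 CPM for Mir29b-2 to 94.1 ± 8.71 CPM for Mir29a. Reads that match several genes enter none of these counts, and their part in the low mir-29 levels was not tested.

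**Figure D5:**
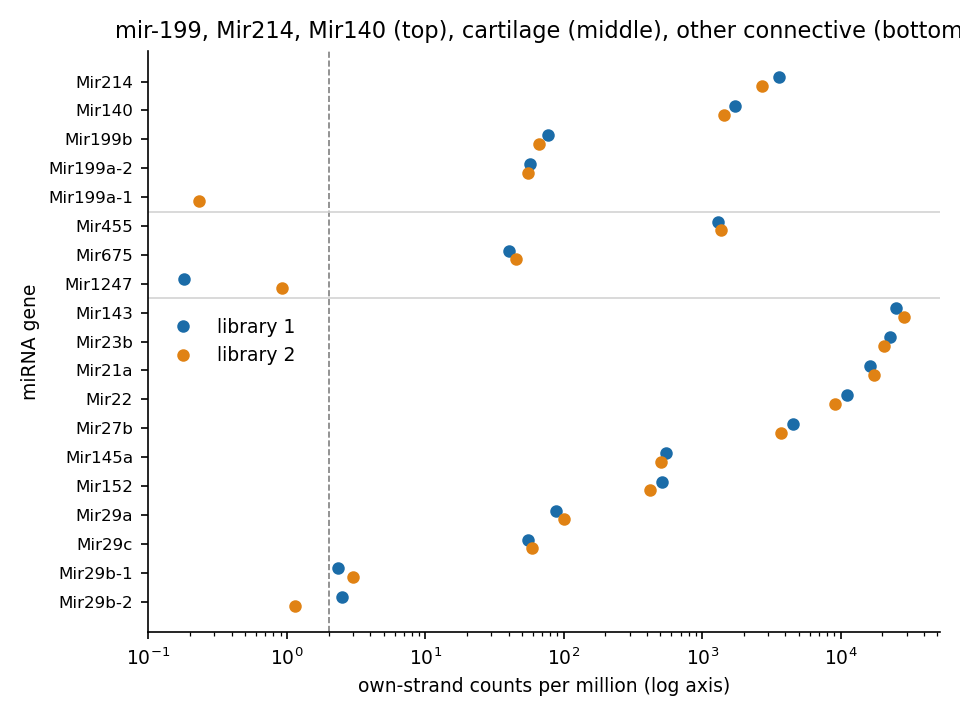
Own-strand CPM (horizontal, log axis) in library 1 (blue) and library 2 (orange) for the mir-199, Mir214 and Mir140 genes (top), cartilage genes (middle) and other connective genes (bottom). The dashed line is the detection minimum of 2 CPM, and the 0 reads of Mir199a-1 in library 1 have no point. Mir455 lies beside Mir140, and Mir143, Mir23b and Mir21a lie above Mir214.

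Outside the set, 2 counted genes have a strand in the RefSeq list with a seed of one of the strands printed above. Mir761 has the seed of miR-214-3p and Mir497b that of miR-140-3p. The 5p strands of Mir140 and Mir199b were not in this search.
miR-761 (Mir761): gCAGCAGGgugaaacugacaca
miR-497b (Mir497b): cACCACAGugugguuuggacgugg
Mir761 had 0 own-strand reads in both libraries, and Mir497b had 1 in library 1 and 0 in library 2. The reads at the Mir497b position lay on the opposite strand, 1494 in library 1 and 1058 in library 2. These equal the own-strand counts of the gene Mir497 in the same libraries. The tables count genes and not strands, so the share of Mir214 and Mir140 reads that came from each arm is unknown.

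Likeness in level was measured as the Euclidean distance in log2(CPM + 0.5) over both libraries, which gives only 2 points a gene. The gene closest to Mir214 was Mir100, a member of the mir-99/100 family, with 3624 CPM in library 1 and 2803 CPM in library 2 at a distance of 0.06. Mir154 of the imprinted Dlk1-Dio3 cluster followed at 0.19 and the let-7 relative Mir98 at 0.27. Closest to Mir140 were Mir543 at 0.22 and Mir300 at 0.22, both of the Dlk1-Dio3 cluster, and Mir676 at 0.28. Mir199b lay closest to Mir700, Mir3072 and Mir1306, at distances of 0.19 to 0.30. Mir199a-2 lay closest to Mir669c and Mir669l of the Sfmbt2 array and to Mir31, a gene of quiescent satellite cells, at distances of 0.05 to 0.09.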

How the data were processed

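The authors deposited raw read counts per gene against mm10 with the M21 annotation, per the labels and a text beside the tables. The counting tool with its settings is not given in the sources used here. Of 3 count columns, the own-strand one was used. The 4 lines that name no gene stayed out of library sizes and tests. In library 1 and library 2 they held 36.9% and 37.6% of reads as multimapping, 8.03% and 9.26% as unmapped, 1.70% and 2.09% as no feature, and 0% as ambiguous. All 2202 identifiers matched GENCODE M21, whose transcripts gave the hairpins. Mature strands came from RefSeq, and all 5 hairpins were identical in both sources.

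CPM used own-strand gene totals. Library ratios used TMM factors (edgeR 4.0.16, R 4.3.3) and an exact binomial test. The test was tried on simulated counts that held counting error only, so that trial says nothing of variation between replicates. DESeq2 1.42.0 size factors, plain totals, unstranded counts, other minimums and pseudocounts were alternatives. Tests ran in scipy 1.17.1 under Python 3.11.15, tables in pandas 2.3.3 with numpy 2.4.6, and plots in matplotlib 3.10.9. The genes and lists were chosen with earlier results of these data known. Genes named were the 5, those sharing a seed or 20 bases with them, and the 3 nearest in level to each. The cartilage genes and the 3 highest other connective genes were also named. The markers, mir-29 genes, Mir497 and genes of the closing section were named where a result turned on them. Of the neural markers, Mir124-2 did not match a symbol. The labels number the females separately but give both the same donor entry, and spread between the libraries may be technical.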

Additional observations from a re-analysis of the deposited data

Results flagged for a closer look

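The line of reads that matched several places, which enters no level above, held 3842752 reads in library 1 and 3187607 reads in library 2, far above the limit of 3 reads that a count of 0 allows. For each read counted on the mir-199, Mir214 and Mir140 genes, that line held 127 reads in library 1 and 173 reads in library 2. The tables do not say which genes these reads came from.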

How the results depend on the processing

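No log2 ratio of Mir214, Mir140, Mir199b or Mir199a-2 changed sign under the alternatives. The calls of Mir214 and Mir140 held under every scaling, strand and filter setting. Ratios of single genes outside the set, such as Mir455, were not followed through these settings. The order of the 5 levels also held under every setting tried, but most of these could hardly have changed it. Counts of the 5 genes with strand ignored were nearly those of their own strand. Leaving out 1 library only gives the order of the other. With multimapping reads added to the denominator, the means fell to 1829.7 CPM for Mir214, 921 CPM for Mir140, 41.8 CPM for Mir199b and 32.7 CPM for Mir199a-2, and the summed share to 0.283%. With all reads in the denominator they were 1639, 825, 37.4 and 29.3 CPM and 0.253%. These shifts follow from the larger denominators. Ignoring strand gave 1796 CPM for Mir140, 81.5 CPM for Mir199b and 63.8 CPM for Mir199a-2, because fewer gene reads make up the total. The log2 ratio of Mir199b was called at 0.26 with DESeq2 size factors, at 0.26 with strand ignored and at 0.30 with no filter, and the cause was not tested; its adjusted p ranged from 0.0277 to 0.108 over the alternatives of the exact binomial test. The number of called genes of the 5 was 2, or 3 in those settings, and the number detected was 4, or 5 with no filter. Of all genes tested, 186 of 335 were called in the main setting and with DESeq2 size factors, and 187 of 335 with plain totals. The counts were 165 of 320 with strand ignored, 168 of 254 with a minimum of 10 CPM and 198 of 740 with no filter. With DESeq2 size factors 105 detected genes were called higher in library 1 and 81 in library 2, against 90 and 96 with TMM. With 1 library left out, each value is that of the remaining library, as given above, with no test. A mean over 2 libraries cannot then move by more than their SD, so this says nothing of stability. No paired analysis was possible because the series has 1 group. Mir199a-1 was at or under 3 reads in both libraries, and each of its listed strands also occurs in another counted hairpin. The parts of read depth and of shared sequence in its low count were not tested.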

Other observations

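Among the 1018 counted genes with a mature strand in the RefSeq list, 53 have every listed strand present in another counted hairpin, and Mir199a-1, Mir199a-2 and Mir199b are among them, Mir199b by its 3p strand alone. Of these 53 genes, 6 were detected (11.3%), with a median of 63.8 CPM and none above 1000 CPM. Mir199b and Mir199a-2 were at ranks 3 and 4 of the 6, after the let-7 genes Mirlet7c-2 at 246 CPM and Mirlet7a-1 at 159 CPM. The median of the 6 lies between ranks 3 and 4, so it rests on Mir199b and Mir199a-2 and is no separate reference for them. Of the 904 genes with no shared strand, which include Mir214 and Mir140, 261 were detected (28.9%), with a median of 168 CPM and 80 genes above 1000 CPM. Of the 61 genes with some strands shared, 36 were detected (59.0%), with a median of 42.4 CPM and 1 gene above 1000 CPM. The detected share was highest with some strands shared, and the median was highest with no shared strand. These counts are a description of gene groups that also differ in family and in expression, and no test was run on them. The let-7 genes were chosen for naming after seeing their levels.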
